A study of Homo sapiens with 12 samples.

Results

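HEK293 cells carrying a short hairpin RNA against MED12 were set against HEK293 cells overexpressing full-length MED12, the groups with the lowest and the highest MED12 signal of the study. HEK293 is an established line grown from human embryonic kidney cells. Levels were described over 14432 of the 22011 rows of the array table, those annotated with 1 gene symbol. Another 2408 rows carry several symbols and 5171 carry none. A row is 1 transcript cluster of an Affymetrix exon array, and its value is a log2 RMA value, so a difference of 1 between arrays is a 2-fold difference in signal.

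The 3 shRNA arrays came from cells transfected with a hairpin named shRNA 5, transcribed from an H1 promoter in the vector peGFP-C1 and directed at endogenous MED12. The 3 full-length arrays came from cells given MED12 with an engineered Kozak sequence and a nuclear GFP tag at its N terminus, in the vector pcDNA5/TO. The other 6 arrays were 3 of a MED12 construct lacking its C-terminal PQL and Opa domains and 3 of nuclear GFP alone, both in pcDNA5/TO. All cells were plated 24 h before transfection with a lipid reagent, harvested at 48 h, and sorted by flow cytometry for 20 min for viability and detectable GFP. No group carried a control hairpin, so MED12 level, hairpin expression and vector backbone cannot be told apart between the shRNA and full-length arrays. In such bulk sorted cells, a larger share of responding cells and a higher level per cell cannot be told apart either.

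MED12 belongs to Mediator, a large complex through which transcription factors at enhancers reach RNA polymerase II. Together with MED13, cyclin C and CDK8 or CDK19 it forms the kinase module, which binds Mediator reversibly and can activate or restrain transcription. A pair of well-studied programs recur below. Interferon-stimulated genes encode antiviral proteins and are switched on through interferon-stimulated response elements in their promoters. Heat shock genes encode chaperones that refold or hold damaged proteins and are switched on when HSF1 trimers bind heat shock elements.

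Across the 12 arrays the median log2 value lay between 3.39 and 3.52. The spread of values differed more: the SD over rows was 1.34, 1.60 and 1.47 on the shRNA arrays, against 1.51, 1.56 and 1.56 on the full-length arrays. Replicate arrays correlated across rows with r of 0.89 to 0.952 in the shRNA group and 0.96 to 0.965 in the full-length group. Of 10 genes typical of HEK293 cells 8 were measured, 6 of them above the median level, led by the neurofilament gene NEFM at the 90th percentile. NEFM itself was at -0.82 with the shRNA (limma, adjusted p = 0.166). The summed log2 value of the 8 was 30.6 to 30.9 on the shRNA arrays and 31.9 to 33.2 on the full-length arrays. Markers of fibroblasts, squamous epithelium, leukocytes and hepatocytes had median percentiles of 43.6, 34.8, 21.2 and 21.7, and 0 of their 20 measured members passed the threshold. The shRNA minus full-length difference also moved with signal level, as shown in the plot by level decile. Its median was 0.19 in the lowest decile and -0.34 in the highest, and without shRNA replicate 1, whose SD was the smallest of these 6, it was 0.004 and -0.14. Groups of highly expressed genes are therefore given beside the median difference of rows at their own level. With the same median and SD set on each array, 17 of the 18 genes called below kept their call and SKP1 lost it. Beyond such alternative settings the part of the array spread in the results was not tested, and that of the HEK293 markers was not tested.

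**Figure D1:**
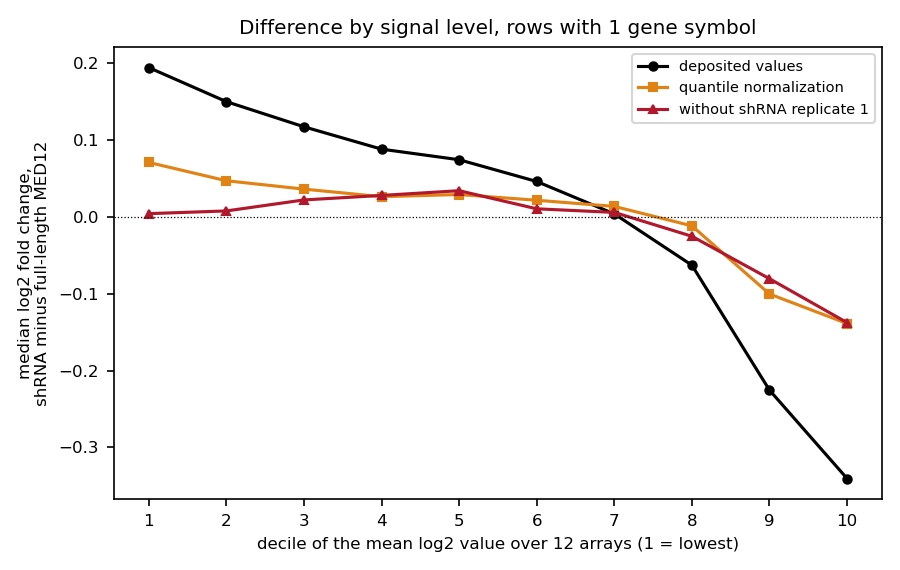
Median log2 fold change, shRNA minus full-length MED12, of rows with 1 gene symbol in each decile of the mean log2 value over 12 arrays. With the deposited values it runs between 0.19 in the lowest decile and -0.34 in the highest. Under quantile normalization and without shRNA replicate 1 the highest decile lies at -0.14.

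MED12 itself, transcript cluster 3980758, had log2 values of 3.63, 3.63 and 3.74 on the shRNA arrays, against 10.63, 10.66 and 10.75 on the full-length arrays. The groups lay 6.89 apart at their nearest arrays. The difference was -7.01 (SE 0.20, 95% interval -7.45 to -6.57), a 129-fold lower level with the shRNA (limma, adjusted p = 1.02e-08). The groups were chosen as the lowest and highest in MED12, so its separation and p-value follow from that choice and only check the labels. GFP arrays held 4.03, 4.56 and 4.66, so most of the distance was the construct: full-length minus GFP was 6.27 (adjusted p = 3.67e-08), while shRNA minus GFP was -0.75 and missed the threshold (adjusted p = 0.73). All 3 shRNA arrays nonetheless lay below all 3 GFP arrays. The signal of the full-length arrays includes RNA of the transfected construct, and the position of the probes along MED12 is not known here. MED12L, the paralog that can take the place of MED12 in the kinase module, had 3.25, 2.62 and 2.90 on the shRNA arrays, against 2.71, 3.06 and 2.86 on the full-length arrays. The MED12L groups overlapped, with a difference of 0.05 (95% interval -0.35 to 0.45, adjusted p = 0.961).

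Beyond MED12, 10 genes rose and 7 fell with the shRNA relative to full-length MED12. All 10 that rose are known interferon-stimulated genes, raised 2.27-fold to 4.84-fold, and 6 of the 7 that fell encode heat shock chaperones, their partners or a stress-induced protein, lowered 2.73-fold to 7.52-fold. The remaining gene that fell was SKP1, a subunit of SCF ubiquitin ligases. Calls were made with limma over all 22011 rows at an adjusted p under 0.05, and this background was low: 10 higher rows are 0.0454% and 13 lower rows 0.0591% of the table, or 0.0693% (10 rows) and 0.0554% (8 rows, MED12 included) of those with 1 symbol. At an unadjusted p under 0.05 there were 358 higher and 563 lower rows with 1 symbol, 6.38% of them together. Their median difference was 0.04, the quartiles were -0.14 and 0.18, and 27 rows were at least 2-fold higher and 36 at least 2-fold lower. Without shRNA replicate 3 or full-length replicate 1, 12 of the 18 calls were lost, without full-length replicate 2 it was 11 and without full-length replicate 3 it was 6, whereas RSAD2, IFI44, ZFAND2A, HSPA1L, DNAJB1 and MED12 passed with any 1 array left out. The calls rest on a spread shared by all 12 arrays. Fitted on the 6 shRNA and full-length arrays alone, with 4 residual degrees of freedom against 8, MED12 was the only one of these 18 genes past the threshold. The other 17 then had adjusted p-values of 0.0548 to 0.263 and unadjusted ones of 7.48e-06 to 0.000335.

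**Figure D2:**
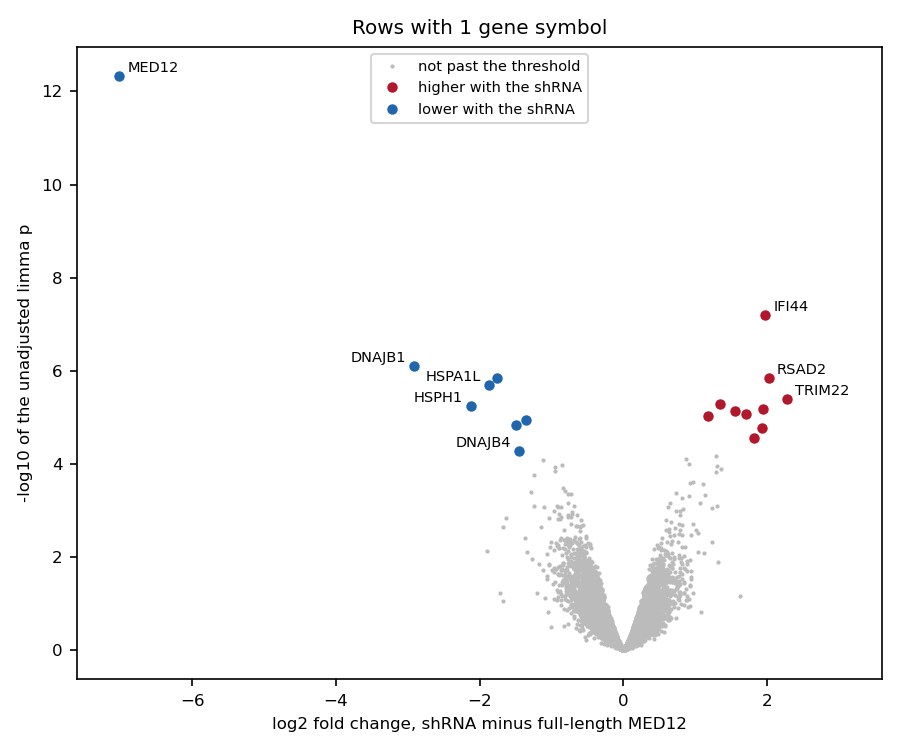
Log2 fold change, shRNA minus full-length MED12, against the -log10 of the unadjusted limma p, with 1 point per row with 1 gene symbol. The 10 genes past the threshold on the right are interferon-stimulated. On the left stand MED12 at -7.01 and 7 others, DNAJB1 the farthest at -2.91.

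The arrays of the called genes were fully separated: the lowest shRNA array of each gene that rose was at least 0.872 above the highest full-length array. Full separation of this kind is common in the table, with 911 rows above (6.31%) and 875 below (6.06%), so it is not a mark of these genes alone.

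Among the genes that rose, members of the IFIT family came first by number. IFIT proteins bind viral RNA with abnormal 5′ ends and block its translation. IFIT1 had 6.57, 7.47 and 6.64 on the shRNA arrays, against 4.90, 5.06 and 5.26 on the full-length arrays, a difference of 1.82 (SE 0.27, limma, adjusted p = 0.0283). For IFIT2 the shRNA arrays held 6.06, 7.07 and 6.68, against 4.75, 4.59 and 4.65 with full-length MED12 (1.94, SE 0.25, adjusted p = 0.0105). IFIT3, which binds and stabilises IFIT1, had 5.93, 6.20 and 5.68 with the shRNA, against 3.89, 3.59 and 4.53 with full-length MED12 (1.93, SE 0.27, adjusted p = 0.0187). In all 3 the shRNA arrays were high and the groups did not overlap. The neighbouring family member IFIT5 was 0.79 higher without passing (adjusted p = 0.598).

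RSAD2, or viperin, makes a chain-terminating nucleotide that stops viral RNA polymerases. Its shRNA values were 5.96, 6.45 and 6.43, against 3.91, 4.28 and 4.59 on the full-length arrays, a difference of 2.02 (SE 0.22, limma, adjusted p = 0.004). IFI44, an interferon-induced protein with antiviral activity, gave the smallest p of the genes that rose: 5.54, 5.98 and 5.66 with the shRNA, against 3.82, 3.85 and 3.59 with full-length MED12 (1.97, SE 0.16, adjusted p = 0.000467). The gap between its nearest arrays, 1.68, was the widest among the 10. OAS2 synthesises the 2′-5′ oligoadenylates that activate RNase L. It had 3.77, 4.47 and 3.89 with the shRNA, against 2.41, 2.43 and 2.66 with full-length MED12 (1.55, SE 0.20, adjusted p = 0.0108).

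TRIM22, a ubiquitin ligase that restricts several viruses, showed the largest rise, 2.27 (SE 0.28, limma, adjusted p = 0.00858). Its arrays held 4.08, 4.97 and 4.71 with the shRNA, against 2.01, 2.00 and 2.92 with full-length MED12. IFITM1, which blocks fusion of viral with cell membranes, had 5.13, 5.68 and 5.11 with the shRNA, against 3.62, 3.29 and 3.90 with full-length MED12 (1.70, SE 0.22, adjusted p = 0.0114). SAMD9 restricts poxviruses. Its values of 4.95, 5.18 and 5.03 with the shRNA, against 3.77, 4.08 and 3.77 with full-length MED12, gave the smallest rise, 1.18 (SE 0.16, adjusted p = 0.012). NMI, a signalling protein that is itself induced by interferon, had 3.65, 3.42 and 3.49 with the shRNA, against 2.15, 2.12 and 2.25 with full-length MED12 (1.34, SE 0.17, adjusted p = 0.00938). In all 4 genes every shRNA array lay above every full-length array, those of NMI only at about the median level of the arrays. All full-length values of NMI and OAS2 lay below the lower quartile of their array, 2.68 to 2.75. So did full-length replicates 1 and 2 of TRIM22. The size of a rise from so low a signal is less certain.

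**Figure D3:**
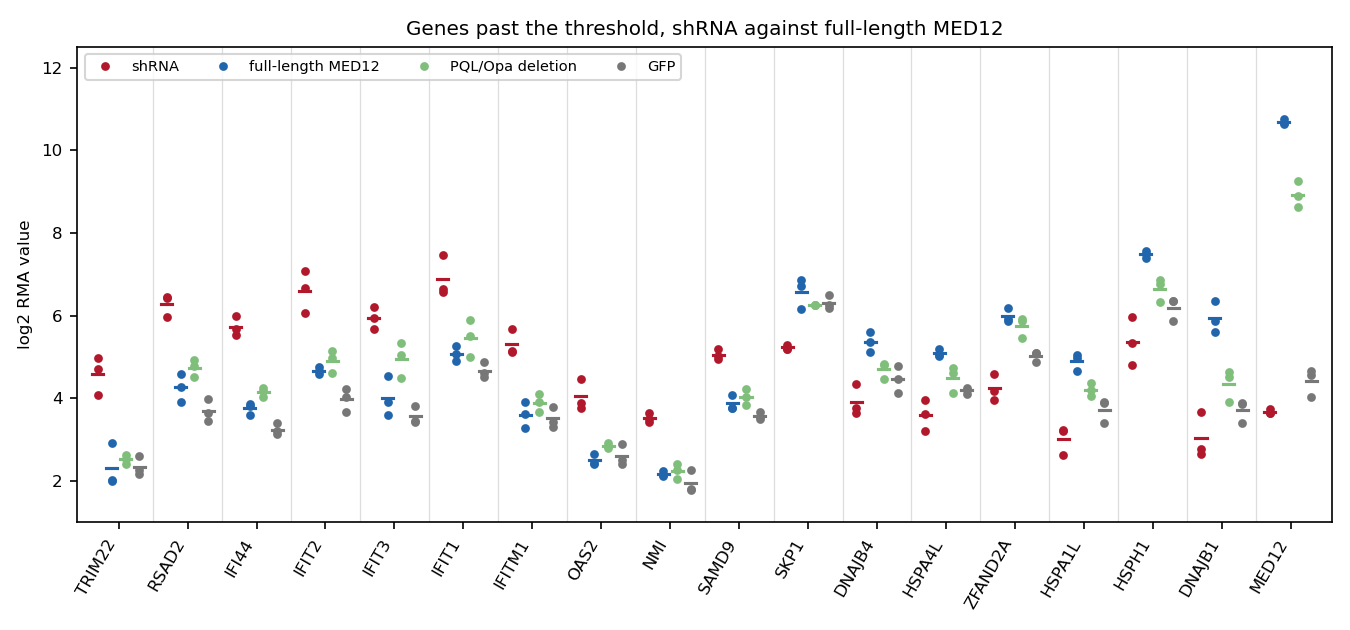
Log2 RMA values on each array of the 18 genes past the threshold, with dots for arrays and bars for the means of 3 arrays in the order shRNA, full-length MED12, PQL/Opa deletion and GFP. The shRNA arrays lie above all full-length arrays in 10 genes and below them in 8. MED12 reaches 10.75 with the full-length construct.

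Promoters of the genes with the largest changes are printed to show the response elements. The core GAAANNGAA, searched on both strands (TTCNNTTTC on the other), stands for the interferon-stimulated response element, and GAANNTTC, which is its own reverse complement, for the heat shock element; the 2 motifs can overlap. A window is the 250 bases before and 50 after a transcription start in RefSeq on GRCh38.p14, and genes can have several. Of the 35116 windows of 27305 genes, 8.11% hold the response element core, as do all 10 windows of the 7 genes that rose and have an entry (RSAD2, IFI44, IFIT3, IFIT1, IFITM1, NMI and SAMD9) and 1 of 13 windows of the 8 genes that fell, MED12 included. The heat shock core is in 6.77% of all windows, in 3 of the 10 windows of genes that rose and in 3 of the 13 of genes that fell, those of DNAJB1 and HSPA1L. Counted by gene, 9.86% of all genes and 7 of 7 that rose hold the first core, and 8.21% of all genes, 2 of 7 that rose and 2 of 8 that fell hold the second. These matches are a description of letters, not of binding. The window with the most matches is printed for the 3 genes with the largest rise that have one and for both genes that fell and hold the heat shock core, 5′ to 3′ on the gene's strand, with the matches to either motif in capitals.
RSAD2, chr2:6865635-6865934, plus strand: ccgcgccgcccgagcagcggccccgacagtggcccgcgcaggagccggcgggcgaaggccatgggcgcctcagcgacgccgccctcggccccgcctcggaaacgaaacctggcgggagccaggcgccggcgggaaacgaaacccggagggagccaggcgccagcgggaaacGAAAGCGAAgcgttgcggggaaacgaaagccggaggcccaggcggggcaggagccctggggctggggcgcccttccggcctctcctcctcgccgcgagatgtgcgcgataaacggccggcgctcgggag
IFI44, chr1:78649539-78649838, plus strand: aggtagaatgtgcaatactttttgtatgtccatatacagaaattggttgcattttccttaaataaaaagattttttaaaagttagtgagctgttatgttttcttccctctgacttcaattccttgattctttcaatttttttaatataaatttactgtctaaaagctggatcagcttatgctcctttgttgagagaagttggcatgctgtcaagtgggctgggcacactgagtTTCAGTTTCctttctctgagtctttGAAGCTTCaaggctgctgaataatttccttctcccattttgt
IFIT3, chr10:89332279-89332578, plus strand: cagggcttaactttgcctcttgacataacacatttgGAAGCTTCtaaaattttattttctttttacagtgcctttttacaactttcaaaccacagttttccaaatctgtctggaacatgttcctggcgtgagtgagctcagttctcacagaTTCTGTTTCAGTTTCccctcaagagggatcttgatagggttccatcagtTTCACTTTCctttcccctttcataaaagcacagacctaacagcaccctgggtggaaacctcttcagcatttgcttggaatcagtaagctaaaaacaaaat
DNAJB1, chr19:14518348-14518647, minus strand: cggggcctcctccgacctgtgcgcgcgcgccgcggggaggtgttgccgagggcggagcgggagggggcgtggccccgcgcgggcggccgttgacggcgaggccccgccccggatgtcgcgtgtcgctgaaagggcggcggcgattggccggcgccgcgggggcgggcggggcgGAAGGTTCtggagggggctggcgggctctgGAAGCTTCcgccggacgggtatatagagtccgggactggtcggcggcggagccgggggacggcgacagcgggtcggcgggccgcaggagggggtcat
HSPA1L, chr6:31815234-31815533, minus strand: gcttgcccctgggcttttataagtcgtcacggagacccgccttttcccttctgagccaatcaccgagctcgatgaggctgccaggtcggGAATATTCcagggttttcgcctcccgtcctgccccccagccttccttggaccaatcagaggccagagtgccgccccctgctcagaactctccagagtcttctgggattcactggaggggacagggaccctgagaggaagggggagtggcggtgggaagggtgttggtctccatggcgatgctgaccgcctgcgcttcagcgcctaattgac
The response element core of RSAD2 begins 79 bases before the start and that of IFI44 17 bases before it. IFIT3 holds 3 such cores, of which the pair at 99 and 93 bases before the start overlap and the other lies 50 bases before it. The heat shock core is also printed in 2 of these genes that rose, 8 bases after the start in IFI44 and 214 bases before it in IFIT3. In DNAJB1 the heat shock cores begin 77 and 47 bases before the start, and in HSPA1L 161 bases before it.

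Among the genes that fell, DNAJB1 changed most after MED12. DNAJB1 is the main stress-induced HSP40, which delivers clients to HSP70 and starts its ATPase cycle. Its transcript cluster 3852783 had 2.64, 3.65 and 2.77 on the shRNA arrays, against 5.59, 5.86 and 6.35 on the full-length arrays, a difference of -2.91 (SE 0.30, limma, adjusted p = 0.004), and the nearest arrays lay 1.94 apart. DNAJB4, a related HSP40, had 3.64, 4.34 and 3.77 with the shRNA, against 5.37, 5.61 and 5.11 with full-length MED12 (-1.45, SE 0.23, adjusted p = 0.0496), which is at the edge of the threshold. Its call was lost in 13 of 22 alternative settings.

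The HSP110 proteins release nucleotide from HSP70 so that it can let go of its client. HSPH1 had 4.80, 5.96 and 5.32 on the shRNA arrays, against 7.56, 7.39 and 7.49 on the full-length arrays (-2.12, SE 0.27, limma, adjusted p = 0.00956). The HSP110 relative HSPA4L had 3.22, 3.95 and 3.61 with the shRNA, against 5.03, 5.19 and 5.05 with full-length MED12 (-1.49, SE 0.21, adjusted p = 0.0165). For both, the 3 full-length arrays were close together and the shRNA arrays spread more widely, all of them lower. HSPA1L is an HSP70 encoded beside HSPA1A in the major histocompatibility complex. It had 3.21, 2.61 and 3.23 with the shRNA, against 4.66, 5.04 and 4.97 with full-length MED12 (-1.87, SE 0.21, adjusted p = 0.00489). HSPA1L is nearly identical in part to HSPA1A and HSPA1B, whose own rows carry both symbols, and how its probes share signal with theirs was not tested.

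ZFAND2A, or AIRAP, is a stress-induced protein that works with the proteasome. It had 3.96, 4.58 and 4.18 on the shRNA arrays, against 5.91, 6.19 and 5.88 on the full-length arrays (-1.76, SE 0.19, limma, adjusted p = 0.004). SKP1 had 5.30, 5.18 and 5.20 with the shRNA, against 6.72, 6.85 and 6.15 with full-length MED12 (-1.35, SE 0.18, adjusted p = 0.0138). The shRNA arrays of SKP1 agreed closely while its full-length arrays varied, and its call was lost in 7 of 22 alternative settings, quantile normalization among them.

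The GFP arrays give a level from which both arms can be measured, but only the full-length arm shares their vector pcDNA5/TO. In shRNA minus GFP, MED12 level, hairpin expression and vector backbone cannot be told apart. The shRNA minus GFP and full-length minus GFP differences are set side by side here, and they share the 3 GFP arrays. The genes were called on these same shRNA and full-length arrays. Low p-values against GFP are favoured by that choice and are no separate support. Over all rows limma called 15 (0.0681%) in shRNA minus GFP and 3 (0.0136%) in full-length minus GFP. For the 10 interferon-stimulated genes, shRNA minus GFP ran from 1.45 to 2.63 and all 10 passed, while full-length minus GFP ran from -0.10 to 0.69 and 0 passed in limma, RSAD2, IFI44 and IFIT2 having an unadjusted p under 0.05. IFIT2, for example, had 3.67, 4.02 and 4.22 on the GFP arrays, which is 2.63 below its shRNA mean and 0.69 below its full-length mean. The GFP mean was below both in 8 of the 10 and between them in TRIM22 and OAS2, where full-length minus GFP was -0.03 and -0.10. With the replicate block, 9 of the 10 passed in shRNA minus GFP, OAS2 missing the threshold (adjusted p = 0.0645), and 0 in full-length minus GFP.

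In all 7 genes that fell, the GFP mean stood between the arms. For the 6 chaperone and stress genes, shRNA minus GFP ran from -0.82 to -0.54 and full-length minus GFP from 0.90 to 2.22. In limma 0 of 6 passed in either against GFP. All 6 had an unadjusted p under 0.05 in both, which their choice by the difference between the arms favours. DNAJB1 had 3.41, 3.88 and 3.86 with GFP, which put the full-length arrays 2.22 above it (limma, adjusted p = 0.0664) and the shRNA arrays 0.69 below it (adjusted p = 0.983). HSPH1 had 5.86, 6.36 and 6.34 with GFP, with a full-length minus GFP difference of 1.30 and a shRNA minus GFP difference of -0.82. For SKP1 the larger step was with the shRNA, -1.08 against GFP (adjusted p = 0.10), beside 0.27 for full-length minus GFP. Deviations of same-numbered full-length and GFP arrays correlated with r of 0.218, 0.101 and 0.229. For shRNA with GFP, r was 0.464 and 0.269 in replicates 1 and 2, but 0.0223 in replicate 3. With the replicate block, DNAJB1 passed in full-length minus GFP (adjusted p = 0.016) and the other 6 did not in either comparison. The difference between these patterns was not tested as such.

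**Figure D4:**
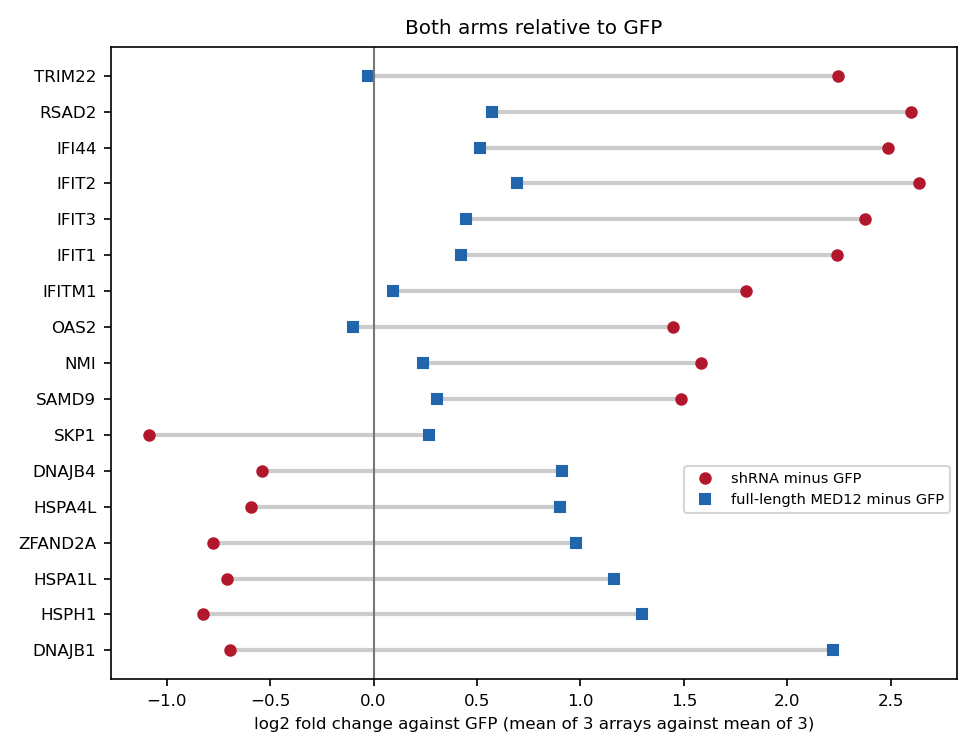
Log2 fold change of the shRNA arm (circles) and the full-length arm (squares) against GFP, each a mean of 3 arrays, for the 17 called genes other than MED12. In the 10 interferon-stimulated genes the circles lie between 1.45 and 2.63 and the squares between -0.10 and 0.69. In the 6 chaperone and stress genes the squares reach 0.90 to 2.22.

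Gene lists by function put these genes beside their pathways; 626 of 813 listed genes were measured. With any 1 array left out, the medians of 9 of the 33 lists stayed within 1.5 times their value: antiviral effectors, sensors, ISG15 conjugation, PARPs and nuclear bodies, MHC class I, HSP70 and HSP110, HSP90, immediate early and mitochondrial ribosomal genes. Those of the other 24 moved further, mostly without shRNA replicate 1 or 2, and values without replicate 1 are given below beside the printed medians. Several moved away from 0 without replicate 2: S phase to -0.37, G2 and mitosis to -0.27, oxidative phosphorylation to -0.28, Hedgehog to 0.26 and REST-repressed neuronal genes to 0.29. With either left out, core Mediator moved toward 0 (-0.05 and -0.06) and cytosolic ribosomal genes away from it (-0.19 and -0.26). In the list of antiviral effectors 9 of 27 measured members rose and 0 fell, with 26 above 0 and a median difference of 0.92, against 0.04 over all rows with 1 symbol. A further 13 were higher at an unadjusted p under 0.05, and 22 of the 27 had separated arrays. Over all 14432 rows with 1 symbol, 0.0693% were called higher and 0.0554% lower. Separated arrays were found in 6.31% with the shRNA above and in 6.06% with it below. At an unadjusted limma p under 0.05, 358 rows were higher and 563 lower, the background of every list below. NT5C3A, a nucleotidase induced by interferon, was just outside the threshold: it had 6.21, 5.81 and 5.91 with the shRNA, against 4.32, 4.78 and 4.97 with full-length MED12 (1.29, limma, adjusted p = 0.0605). OAS1 had 4.09, 5.06 and 4.50 with the shRNA, against 3.24, 3.05 and 3.29 (1.36, adjusted p = 0.0864) with full-length MED12. IFI44L, the neighbour and paralog of IFI44, was 1.28 higher (adjusted p = 0.0946). The translation inhibitor ZC3HAV1 was the member below 0, at -0.05.

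Sensors of foreign nucleic acid had 16 of 18 measured members above 0, a median of 0.31, and 0 past the threshold in limma, with 6 higher at an unadjusted p under 0.05. RIGI, which recognises RNA with a 5′ triphosphate, had 5.94, 7.01 and 6.45 with the shRNA, against 5.13, 5.06 and 5.29 with full-length MED12 (1.31, adjusted p = 0.238). IFIH1, or MDA5, the sensor of long double-stranded RNA, had 4.91, 5.60 and 5.27 with the shRNA, against 3.91, 4.40 and 4.12 (1.11, adjusted p = 0.142) with full-length MED12. The groups of both were separated, as in 6.31% of rows with 1 symbol. TLR3, the endosomal sensor of double-stranded RNA, was 1.23 higher (adjusted p = 0.239), its shRNA values at 3.85, 3.24 and 3.22 and its full-length values at 2.02, 2.30 and 2.31.

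Ligands, receptors and signalling factors of the interferon response had 0 of 15 measured members past the threshold and a median of 0.06 (0.10 without shRNA replicate 1, -0.02 without replicate 3), with 1 higher and 1 lower at an unadjusted p under 0.05. These were IRF2 at 0.48 (adjusted p = 0.585) and the interferon gamma receptor subunit IFNGR1 at -0.39 (adjusted p = 0.635). IFNB1, the beta interferon gene, held 2.31, 2.04 and 2.21 with the shRNA, against 2.30, 1.67 and 1.94 with full-length MED12. The groups overlapped, and the interval of the difference ran from -0.35 to 0.79. Each IFNB1 value lay below the lower quartile of its array, 2.64 to 2.94 with the shRNA and 2.68 to 2.75 with full-length MED12. At so low a signal the overlap cannot decide whether IFNB1 changed.

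Further interferon-induced lists lay above 0 as well. PARPs, nuclear body proteins and NMI had 10 of 10 measured members above 0, 1 of them, NMI, past the threshold, and a median of 0.59. PARP14, an ADP-ribosyltransferase, had 5.14, 6.01 and 5.40 with the shRNA, against 4.08, 4.26 and 4.30 with full-length MED12 (1.30, limma, adjusted p = 0.080). The nuclear body proteins SP110 and SP100 were 0.77 and 0.66 higher, neither past the threshold. ISG15 conjugation genes had 6 of 6 above 0, 0 past the threshold and a median of 0.42; ISG15, the ubiquitin-like modifier itself, was 0.41 higher (adjusted p = 0.697). HERC6 and UBE2L6, which belong to that conjugation pathway, were 0.58 and 0.44 higher and had an unadjusted p under 0.05. Genes of MHC class I antigen processing had 12 of 13 above 0 and a median of 0.24, 0 past the threshold and 3 higher at an unadjusted p under 0.05. ERAP2, a peptidase that trims peptides for MHC class I, had 3.71, 3.73 and 3.45 with the shRNA, against 2.63, 2.90 and 2.76 with full-length MED12 (0.87, adjusted p = 0.0689), and the peptide transporter TAP1 was 0.73 higher (adjusted p = 0.263). NF-kB targets and chemokines, another arm of innate signalling, had a median of 0.08 (-0.01 without shRNA replicate 1), 0 of 16 past the threshold and only CCL2 at an unadjusted p under 0.05 (0.72, adjusted p = 0.615).

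Chaperone lists leaned the other way. HSP70 and HSP110 chaperones had 3 of 14 measured members lowered, 11 below 0 and a median of -0.46, against -0.06 for rows at the level of its members. HSPA8, the constitutive HSP70, had 8.57, 9.03 and 8.62 with the shRNA, against 9.49, 9.53 and 9.52 with full-length MED12 (-0.77, limma, adjusted p = 0.224). BAG3, the HSP70 co-chaperone of selective autophagy, had 3.79, 4.07 and 3.95 with the shRNA, against 4.90, 4.79 and 4.98 (-0.95, adjusted p = 0.0924) with full-length MED12. Both missed the threshold with separated arrays, which 6.06% of rows with 1 symbol also had in that direction. DNAJ co-chaperones had 2 of 14 lowered, 11 below 0 and a median of -0.36, against -0.03 at their level, or -0.22 without full-length replicate 2 and -0.30 without shRNA replicate 1; DNAJA1, at -0.79, had an adjusted p of 0.664. HSP90 and its co-chaperones had 3 of 7 above 0 and a median of -0.55, against -0.06 at their level and -0.30 with the same SD on each array, 0 past the threshold and 2 lower at an unadjusted p under 0.05. These were HSP90AA1, the stress-inducible HSP90, at -0.55 (adjusted p = 0.573) and the immunophilin FKBP4 at -1.17 (adjusted p = 0.585). CHORDC1, an HSP90 co-chaperone, was at -1.72 with 1.21, 5.33 and 4.04 on the shRNA arrays, against 5.63, 4.75 and 5.34 on the full-length arrays. Its groups overlapped and shRNA replicate 1 stood far below the rest. The HSP90 list overlapped as well. Its mean over members relative to GFP was -0.68, 0.36 and -0.11 on the shRNA arrays, against 0.45, 0.18 and 0.42 on the full-length arrays.

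Heat shock factors and proteins that clear damaged proteins had 1 of 15 lowered, ZFAND2A, with a median of -0.10 against -0.23 at their level, which turned to 0.06 without shRNA replicate 1. UBB, a polyubiquitin gene, had 8.68, 8.69 and 8.26 with the shRNA, against 9.23, 9.49 and 9.24 with full-length MED12 (-0.78, limma, adjusted p = 0.173). HSF1, the factor that switches on heat shock genes, differed by 0.18 (adjusted p = 0.873) with overlapping groups. Small heat shock proteins and SERPINH1 had a median of 0.05 (0.01 without shRNA replicate 1, -0.02 without full-length replicate 3) with 0 of 6 past the threshold, SERPINH1, the collagen chaperone, at -0.52 (adjusted p = 0.545). Chaperonins had 8 of 9 below 0 and a median of -0.47, but rows at their level had -0.34, the list had -0.26 without shRNA replicate 1, and 0 passed the threshold, CCT4 alone having an unadjusted p under 0.05. Endoplasmic reticulum stress genes had a median of -0.15 against -0.23 at their level, which turned to 0.03 without shRNA replicate 1, with 0 of 20 past the threshold and HERPUD1, a factor of endoplasmic reticulum-associated degradation, at -0.87 (adjusted p = 0.238).

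Proteasome subunits were lower by group means without a call: all 24 measured members were below 0 and their median was -0.37. In limma 0 passed the threshold and 3 were lower at an unadjusted p under 0.05. As a mean over members relative to GFP, shRNA arrays lay at -0.67, 0.30 and -0.20, and full-length arrays at 0.14, 0.36 and 0.29. The groups thus overlapped, shRNA replicate 2 lying above full-length replicates 1 and 3. Rows at their level had -0.28, and 19 of the 24 were below the median of their own decile. Without shRNA replicate 1 the list's median was -0.24 and 4 members were above 0; without shRNA replicate 2 it was -0.68; under quantile normalization it was -0.28 and 2 were above 0. PSMC2, an ATPase of the regulatory particle, had 3.46, 5.11 and 3.70 with the shRNA, against 5.44, 5.50 and 5.45 with full-length MED12 (-1.37, adjusted p = 0.45), shRNA replicates 1 and 3 being the low ones.

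**Figure D5:**
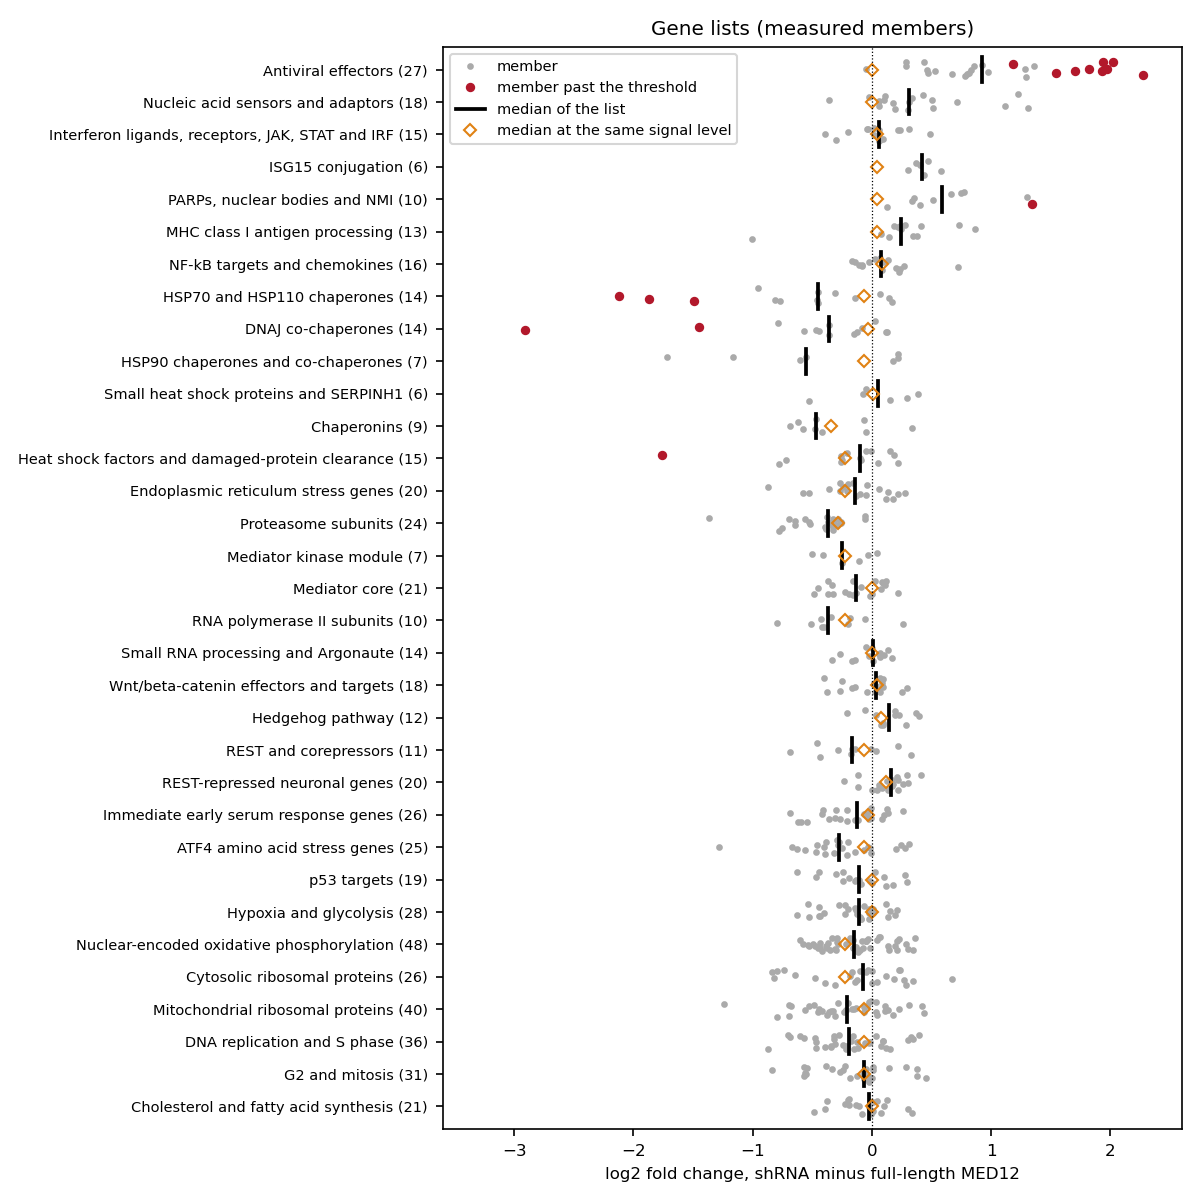
Log2 fold change, shRNA minus full-length MED12, of every measured member of 33 gene lists, with the number of measured members in brackets. Black bars are list medians and open diamonds the median of rows at the members' own signal levels. MED12 at -7.01 is left off the scale of the Mediator kinase module; antiviral effectors have a median of 0.92 and HSP70 and HSP110 chaperones one of -0.46.

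Within Mediator, MED12 alone passed the threshold. The other 6 genes of the kinase module did not pass, CCNC at -0.41 (limma, adjusted p = 0.736), CDK8 at -0.50 (adjusted p = 0.766) and MED13 at -0.25 (adjusted p = 0.878). Their intervals reached -0.94 for CCNC, -1.22 for CDK8 and -1.02 for MED13, so moderate decreases were not detectable with 3 arrays a group. Without shRNA replicate 1 these differences were -0.27, -0.26 and -0.01. Core Mediator had 0 of 21 past the threshold and a median of -0.14 (-0.05 without shRNA replicate 1), MED8 alone having an unadjusted p under 0.05 (-0.48, adjusted p = 0.585). RNA polymerase II subunits had a median of -0.37 against -0.23 at their level, or -0.16 without shRNA replicate 1, and 0 of 10 passed, with 2 lower at an unadjusted p under 0.05. Genes of small RNA processing, which handle the hairpin, had a median of 0.01 (0.11 without shRNA replicate 1 and -0.09 without replicate 2) with 0 of 14 past the threshold and 0 at an unadjusted p under 0.05.

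Pathways in which MED12 is known to act showed no called member in limma. Wnt/beta-catenin effectors and targets had a median of 0.03 (-0.02 without shRNA replicate 1) over 18 genes with 0 at an unadjusted p under 0.05, and Hedgehog genes a median of 0.14 (0.03 without it) over 12 with 1, the co-receptor CDON (0.39, adjusted p = 0.681). REST and its corepressors had a median of -0.17 over 11, with HDAC2 at -0.46 and KDM1A at -0.69 at an unadjusted p under 0.05, while neuronal genes repressed by REST had a median of 0.16 over 20, with 0. Rows at the level of the neuronal genes had a median of 0.12. Without shRNA replicate 1 the neuronal median turned to -0.02, the corepressor median was -0.07 and KDM1A was at -0.39.

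Stress and growth lists were likewise without calls. Immediate early genes had 21 of 26 below 0 and a median of -0.13, with 0 past the threshold and 5 lower at an unadjusted p under 0.05. EGR1 had 5.54, 5.85 and 5.91 with the shRNA, against 6.44, 6.46 and 6.47 with full-length MED12 (-0.69, limma, adjusted p = 0.238), and JUN was at -0.60 (adjusted p = 0.309). ATF4 targets of amino acid stress had 21 of 25 below 0 and a median of -0.27, against -0.06 at their level and -0.13 without shRNA replicate 1, with 5 lower at an unadjusted p under 0.05. DDIT4, an inhibitor of mTORC1, led them with 3.40, 4.26 and 3.38 with the shRNA, against 5.08, 4.94 and 4.86 with full-length MED12 (-1.28, adjusted p = 0.17). The p53, hypoxia and cholesterol lists had medians of -0.11, -0.11 and -0.03, with 2 of 19, 3 of 28 and 1 of 21 members lower at an unadjusted p under 0.05. Oxidative phosphorylation, cytosolic ribosomal and mitochondrial ribosomal genes had medians of -0.15, -0.07 and -0.21, against -0.23, -0.23 and -0.06 at their levels, and MRPL18, a mitochondrial ribosomal protein, was at -1.24 (adjusted p = 0.102). S phase genes had a median of -0.20 over 36 and genes of G2 and mitosis -0.07 over 31, with 4 and 2 lower and 1 and 1 higher at an unadjusted p under 0.05. Without shRNA replicate 1 the medians of the p53, hypoxia and cholesterol lists were -0.06, -0.05 and 0.05, those of oxidative phosphorylation and cytosolic ribosomal genes -0.06 and -0.19, and those of S phase and of G2 and mitosis -0.07 and 0.002. GMNN, the inhibitor of replication licensing, was just outside the threshold at -0.95 (adjusted p = 0.0833).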

How the data were processed

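Gene expression was measured in 12 HEK293 samples, 3 in each of 4 groups named in the labels, with amplified total RNA (NuGEN kits) on exon arrays. The deposited log2 values, 1 per transcript cluster and array, were made by the authors with RMA in Partek on hg18, per the submitters' processing notes; no software version or probe selection is recorded there. The labels call the replicates biological without naming separate cultures, so p-values measure the spread between these samples only. The array number, 3 per group, limits the precision. Symbols came from the platform annotation given for the table, and 14404 of 14432 single-symbol rows matched a RefSeq gene ID; for lists, the row with the highest mean stood for a gene (14232 genes).

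The log2 values were used as deposited. Group means over all 12 arrays were fitted with limma 3.58.1 (lmFit, eBayes) in R 4.3.3, which gave 8 residual and 3.52 prior degrees of freedom. The contrast was shRNA minus full-length MED12, two-sided, with Benjamini-Hochberg adjustment over 22011 rows and a threshold of 0.05, and rows with 1 symbol are reported. The genes named are MED12, MED12L, up to 20 called genes in each direction, and for each list its called members (up to 8) and up to 3 others with the smallest p; genes just outside the threshold, and a few others of known role, were added after their values were seen. The members and lists were chosen with earlier results of these data known. Replicate numbers are shared by the groups. Correlations between the deviations of same-numbered shRNA and full-length arrays were 0.203, 0.0523 and 0.0611, weak in replicates 2 and 3. Those of shRNA and GFP arrays were 0.464, 0.269 and 0.0223, and those of full-length and GFP arrays 0.218, 0.101 and 0.229. Replicate 1 had the smallest SD over rows in each group, 1.34, 1.51, 1.45 and 1.40 for shRNA, full-length, PQL/Opa deletion and GFP. The reported fit has no replicate block, so any structure shared by replicate number stays in its spread. The block is given as an alternative. For the comparisons with GFP it was chosen after seeing the data. Alternatives covered the arrays fitted, the replicate block, normalization, row filters, variance settings, array weights and each array left out.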

Additional observations from a re-analysis of the deposited data

How the results depend on the processing

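MED12 stayed past the threshold in all 22 alternatives, between -7.14 and -6.93, which the choice of groups by MED12 level sets in advance. Of the other 17 called genes, RSAD2, IFI44, ZFAND2A, HSPA1L and DNAJB1 lost the call only on the 6 arrays alone. There, 0 genes were called higher and 1 lower, with 271 higher and 449 lower rows at an unadjusted limma p under 0.05. Against 10 higher and 8 lower in the reported fit, quantile normalization called 19 higher and 9 lower, a fit on rows with 1 symbol alone 16 and 13, and array weights 931 and 1059, with shRNA replicate 3 given a weight of 8.77. With the replicate block, 14 were higher and 15 lower, and all 18 genes kept their call. Deviations of same-numbered shRNA and full-length arrays correlated with r of 0.203, 0.0523 and 0.0611, weakly in replicates 2 and 3. Leaving out 1 array at a time gave 2 to 12 higher and 4 to 13 lower. Without shRNA replicate 3 the counts were 2 and 4, without full-length replicate 1 they were 2 and 4, without full-length replicate 2 they were 3 and 4, without full-length replicate 3 they were 7 and 5, and without shRNA replicate 2 they were 10 and 13. Rows with separated arrays, 911 above and 875 below, became 355 above with rows at or above the median level only, and 1429 above and 1623 below without the 3 arrays of narrow spread; leaving out 1 array gave 1288 to 3282 above and 1182 to 2432 below, since fewer arrays separate more easily. No called value changed sign. The cause of the other changes was not tested. With 3 arrays a group and a median SE of 0.21, no difference under 2-fold was called, the smallest being 2.27-fold.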

Other observations

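Outside the rows with 1 symbol, 5 more rows passed the limma threshold, all lower with the shRNA than with full-length MED12, and 4 of them carry heat shock genes. The row shared by HSPA6, a strictly stress-inducible HSP70 gene, and its near-identical copy HSPA7 had 3.61, 3.16 and 3.25 on the shRNA arrays, against 6.86, 6.94 and 6.69 on the full-length arrays (-3.49, SE 0.17, adjusted p = 1.82e-06). GFP stood between at 4.35, 4.67 and 4.35, and both arms passed against it, at -1.11 for the shRNA (adjusted p = 0.0448) and 2.37 for full-length MED12 (adjusted p = 0.000131). HSPA1A and HSPA1B, the main inducible HSP70 genes, share a pair of rows: one had 7.93, 8.31 and 8.41 with the shRNA, against 9.87, 9.74 and 9.51 with full-length MED12 (-1.49, adjusted p = 0.00858), and the other 4.22, 4.65 and 4.57, against 6.25, 6.40 and 6.60 (-1.93, adjusted p = 0.004). These rows differ in where GFP lies: the first fell by 1.39 against GFP with the shRNA (adjusted p = 0.0166) and full-length MED12 differed from GFP by 0.10, whereas in the second shRNA minus GFP was -0.87 and full-length minus GFP 1.06, neither past the threshold.

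A row naming FDXACB1, CRYAB and ALG9 together had 2.47, 1.53 and 2.10 with the shRNA, against 3.87, 4.19 and 4.36 with full-length MED12 (-2.11, limma, adjusted p = 0.004). CRYAB encodes a small heat shock protein, and the row does not tell which of the genes gave the signal. Its GFP arrays, at 1.87, 1.57 and 1.98, were as low as the shRNA arrays, and full-length minus GFP was 2.33 (adjusted p = 0.00321). The remaining row, transcript cluster 3362736, is unnamed here and was at -2.03 (adjusted p = 0.0444). The genes that share a row cannot be told apart from these values.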
